A study of Arabidopsis thaliana with 48 samples.

Results

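Leaf and shoot RNA of Arabidopsis thaliana was compared between plants that had carried spider mites for 30 min and uninfested plants harvested at the same time. The comparison uses 8 of the 48 libraries of the study: 4 infested (Mites) libraries and 4 control libraries, chosen by their labelled treatment and time. All plants were of the Columbia accession (Col-0) and grew at 23 °C under long days. Infested plants received 20 adult female Tetranychus urticae each at an age of 3 weeks, and control plants received none. Plants of both groups were enclosed alike and whole aerial parts were taken, so that each library holds RNA of all above-ground cell types from a pool of 4 plants. In such bulk samples, fewer cells of a type and less RNA per cell cannot be told apart. The other 40 libraries are the same 2 treatments at 24 h and at 4, 7, 12 and 15 d.

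Spider mites pierce single leaf cells with a stylet and suck out their contents. Plants sense the wound, fragments of their own cell walls, released peptides and mite molecules through receptors at the cell surface, and answer with calcium influx, an oxidative burst and mitogen-activated protein (MAP) kinases. Transcription factors of the ERF, WRKY, MYB and zinc finger families are induced early, and jasmonic acid (JA), made from chloroplast lipids, relieves the JAZ repressors from MYC factors and so induces defence genes against chewing and cell-sucking herbivores. A pair of DNA elements of early-response promoters is well known: the W-box, bound by WRKY factors, and the rapid stress response element, bound by calmodulin-binding CAMTA factors.

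CYP82G1, ACA12, MYB15 and ZAT7 had the largest log2 rises among annotated genes whose mean log2 CPM was 1 or more and whose groups did not overlap, and the 250 bases before each gene start are shown for them for that reason (RefSeq, TAIR10.1, 5′ to 3′ on the gene's strand). Capitals mark a W-box core (TTGACC or TTGACT) or a rapid stress response element (CGCGTT) on either strand. The windows are chr3:9169302-9169551 (minus strand) for CYP82G1, chr3:23410361-23410610 (minus) for ACA12, chr3:8308959-8309208 (plus) for MYB15 and chr3:16926884-16927133 (minus) for ZAT7.
CYP82G1: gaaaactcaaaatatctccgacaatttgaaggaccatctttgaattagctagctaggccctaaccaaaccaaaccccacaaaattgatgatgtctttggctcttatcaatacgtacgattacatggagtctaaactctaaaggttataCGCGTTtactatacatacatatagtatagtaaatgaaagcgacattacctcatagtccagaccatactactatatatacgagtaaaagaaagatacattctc
ACA12: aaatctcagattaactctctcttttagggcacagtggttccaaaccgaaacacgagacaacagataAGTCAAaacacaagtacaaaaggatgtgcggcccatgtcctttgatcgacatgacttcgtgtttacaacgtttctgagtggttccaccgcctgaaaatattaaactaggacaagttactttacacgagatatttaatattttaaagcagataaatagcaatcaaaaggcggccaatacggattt
MYB15: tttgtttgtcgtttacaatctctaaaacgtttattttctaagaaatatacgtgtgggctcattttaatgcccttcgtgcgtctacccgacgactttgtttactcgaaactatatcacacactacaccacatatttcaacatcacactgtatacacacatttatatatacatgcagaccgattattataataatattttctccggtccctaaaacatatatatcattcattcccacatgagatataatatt
ZAT7: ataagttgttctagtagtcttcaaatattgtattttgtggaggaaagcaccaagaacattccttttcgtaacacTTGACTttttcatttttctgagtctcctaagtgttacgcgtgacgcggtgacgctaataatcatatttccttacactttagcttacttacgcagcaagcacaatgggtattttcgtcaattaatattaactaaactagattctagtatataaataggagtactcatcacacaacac
The CYP82G1 window holds 1 rapid stress response element, those of ACA12 and ZAT7 hold 1 W-box core each, and neither element's letters occur in the MYB15 window. Such a match is a description of the letters and not a site shown to be bound.

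Library totals were 13.7 ± 1.04 M counts for infested plants and 19.3 ± 1.57 M for control plants (SD, n = 4 each), with ranges of 12.452 to 14.636 M and 17.61 to 21.397 M that do not overlap. Intervals given for count ratios cover counting error only. The first principal component of log2 CPM over the 8 libraries took 49.8% of the variance and placed the 4 infested libraries apart from the 4 control libraries. The next took 13.1% and set control replicate 1 apart at the low end. Of 17190 well-expressed genes (mean log2 CPM at or above 1), control replicate 1 lay at least 2-fold above all 3 other control libraries for 81 and control replicate 2 for 31, while no infested library did so for more than 18. Results that rest on control replicate 1 are therefore given with and without it. Infested replicate 2 had 0.0816% of its counts on chloroplast genes, against 0.0301 to 0.0309% in the other infested libraries and 0.0321 to 0.0338% in control libraries.

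Leaf markers had the levels of green tissue in both groups: RBCS1A (AT1G67090), a Rubisco small subunit, averaged 12577 ± 369 CPM in infested plants and 12510.0 ± 799 CPM in control plants (log2 fold change 0.01, adjusted p = 1). Root markers summed to 0.577 to 1.92 CPM in infested libraries and 0.656 to 1.15 CPM in control libraries, with EXPA7, EXPA18, RSL4 and RHD6 at 0 in all 8. The 8 floral markers summed to 5.12 to 6.76 CPM in infested libraries and 5.18 to 8.55 CPM in control libraries, and the 3 meristem markers to 4.11 to 5.43 and 4.26 to 5.82 CPM. The 8 guard cell and epidermis markers summed to 705 to 750 CPM in infested and 634 to 762 CPM in control libraries, with 0 called in either direction. The 4 phloem and myrosin cell markers summed to 5860 to 6391 CPM in infested libraries, above the 5189 to 5305 CPM of control libraries, with 0 called by edgeR and 2 higher when only the libraries of the times compared were fitted. Only 1 of the 6 seed markers, SESA1 (AT4G27140), a seed storage albumin, had enough counts to be tested, and it was higher. SESA1 stood at 4.69, 2.67, 2.37 and 2.32 CPM in infested plants and 0.420, 0.422, 0 and 0.0551 CPM in control plants (log2 fold change 3.66, adjusted p = 4.9e-05). All 6 seed markers summed to 2.53 to 4.69 CPM in infested and 0.171 to 0.515 CPM in control libraries, with OLEO2, CRC and SESA3 at 0 in all 8 libraries. One floral marker, AP3 (AT3G54340), a petal and stamen identity factor, was called lower with 1 count over the infested and 17 over the control libraries (ratio 0.0855, 95% interval 0.00204 to 0.545; log2 fold change -3.16, adjusted p = 0.02). That call ended without infested replicate 1, 2 or 3 or control replicate 1 (adjusted p = 0.066, 0.054, 0.062 and 0.21; range 0.0061 to 0.21). Whether RNA of seeds or flowers had a part in other results was not tested.

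Infestation for 30 min changed a large share of the transcriptome, with the large changes mostly rises. Of 22252 genes tested by edgeR's quasi-likelihood test, 2956 (13.3%) were higher and 2160 (9.71%) lower in infested plants at an adjusted p under 0.05. A change of at least 2-fold was found for 934 higher (4.2%) and 189 lower genes (0.849%), and the median log2 fold change of all genes was -0.01. With library totals as the only scaling, 2506 were higher and 2735 lower, so that the higher share of called genes was 47.8% in place of 57.8%, with a median shift of -0.05 for all genes. The 4 libraries of the groups did not overlap for 3311 higher (14.9%) and 2588 lower genes (11.6%). Counts of list members below are read against these shares.

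The calcium pump gene ACA12 (AT3G63380), which exports calcium across the plasma membrane, was among the largest rises. It stood at 14.0, 11.9, 16.7 and 13.5 CPM in infested plants, against 0.420, 0.469, 0.572 and 0.606 CPM in control plants (log2 fold change 4.75, SE 0.59, adjusted p = 3.6e-08). Both groups were tight and lay far apart. IOS1 (AT1G51800), a leucine-rich repeat receptor kinase of immunity, had 22.4, 22.6, 39.1 and 41.8 CPM in infested plants, against 1.05, 1.41, 2.74 and 2.04 CPM in control plants (log2 fold change 4.13, SE 0.37, adjusted p = 1.7e-11). DIC2 (AT4G24570), a mitochondrial dicarboxylate carrier, had 65.3, 62.0, 79.2 and 67.6 CPM in infested plants, against 4.51, 3.70, 5.37 and 5.07 CPM in control plants (log2 fold change 3.88, SE 0.39, adjusted p = 5.2e-10). The lowest infested library thus exceeded the highest control library for each of these genes. MLO12 (AT2G39200), a membrane protein of the powdery mildew susceptibility family, averaged 24.33 ± 2.38 CPM in infested and 1.65 ± 0.70 CPM in control plants (log2 fold change 3.87, adjusted p = 5.7e-15). PP2-A5 (AT1G65390), a phloem protein 2 family gene, had 174, 184, 245 and 235 CPM in infested plants, against 7.66, 18.4, 17.61 and 16.8 CPM in control plants (log2 fold change 3.79, SE 0.22, adjusted p = 4.7e-16). Control replicate 1 was the low one of its group.

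**Figure D1:**
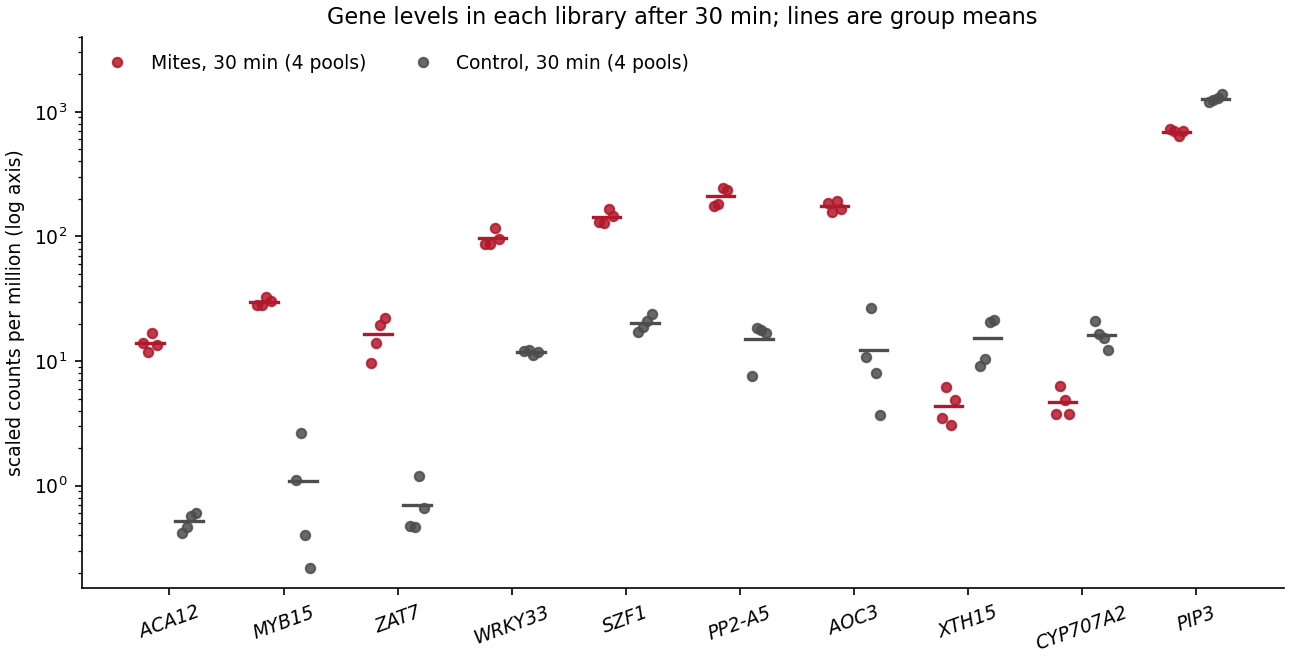
Scaled CPM on a log axis of 10 genes in each library at 30 min, with infested libraries left of control libraries, points for libraries and bars for group means. The infested points of ACA12, MYB15, ZAT7, WRKY33, SZF1, PP2-A5 and AOC3 lie above, and those of XTH15, CYP707A2 and PIP3 below, all 4 control points of the gene.

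Measured in CPM, the largest called rise was that of a feature without a locus name in the authors' table, with 2529, 2405, 2896 and 2784 CPM in infested plants, against 839.8, 1272, 1258 and 1227 CPM in control plants (log2 fold change 1.21, adjusted p = 3.8e-07). Among the 5 largest were also ERD15 (AT2G41430), a dehydration-induced protein (1742 ± 174 CPM in infested and 742 ± 90.2 CPM in control plants), and the cytosolic chaperone HSC70-1 (AT5G02500; 2727 ± 144 and 1747 ± 97.1 CPM). Among called genes, the largest falls in CPM were led by water channels. PIP3 (AT4G35100), an aquaporin of the plasma membrane, had 725, 706, 639 and 703 CPM in infested plants, against 1195, 1239, 1298 and 1379 CPM in control plants (log2 fold change -0.88, SE 0.07, adjusted p = 1.1e-12). DELTA-TIP (AT3G16240) and TIP2 (AT3G26520), aquaporins of the vacuole membrane, fell by 0.60 and 0.45 on the log2 scale (adjusted p = 0.00018 and 0.0018). The extensin-like gene ELP (AT1G12090) and AT2G10940 fell by 0.52 and 0.61. By RefSeq product names, 9 of 25 aquaporin genes were lower and 0 higher.

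Genes of calcium handling rose as a group. Of the 29 tested calcium sensors, channels and pumps, 19 were higher and 2 lower in infested plants, with a median log2 fold change of 0.65. CML37 (AT5G42380), a calmodulin-like sensor linked to herbivore defence, had 5.19, 4.76, 4.81 and 6.51 CPM in infested plants, against 0, 0.281, 0.286 and 0.221 CPM in control plants. The pump gene AT4G37640 (ACA2) had 103 ± 8.30 CPM in infested and 44.2 ± 3.11 CPM in control plants (log2 fold change 1.22, adjusted p = 3.0e-12). The calcium-dependent protein kinases CPK4 (AT4G09570) and CPK32 (AT3G57530) rose by log2 fold changes of 1.25 and 1.31 (SE 0.11 and 0.13). The change of GLR3.3 (AT1G42540), a glutamate receptor-like channel that carries wound signals between leaves, was small: 60.8 ± 6.10 CPM in infested and 51.4 ± 2.96 CPM in control plants (log2 fold change 0.24, adjusted p = 0.015). That call ended without infested replicate 1 (adjusted p = 0.14) or control replicate 4 (0.054), with library totals as the only scaling (0.07) and with counts thinned to the lowest library total (0.058; range over the alternatives 0.0098 to 0.14). The 2 lower members, named after their values were seen, were its paralog GLR3.6 (AT3G51480; -0.47) and the cyclic nucleotide-gated channel CNGC4 (AT5G54250; -0.78).

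Touch-responsive genes rose too. TCH3 (AT2G41100), a calmodulin-like touch gene, had 752, 836, 969 and 972 CPM in infested plants, against 171, 209.5, 310.3 and 337 CPM in control plants (log2 fold change 1.78, SE 0.29, adjusted p = 9.3e-06). TCH2 (AT5G37770), another calmodulin-like gene, rose by 0.91 (adjusted p = 0.00084). The wall enzyme gene TCH4 (AT5G57560) had 153, 129, 209 and 202 CPM in infested plants and 58.6, 61.1, 108 and 146 CPM in control plants, so that the groups overlapped (log2 fold change 0.90, adjusted p = 0.028). Leaving out infested replicate 3 or 4 or control replicate 1 or 2 ended the call (adjusted p = 0.089, 0.078, 0.12 and 0.11), and so did a fit of only the libraries of the times compared (0.11; range 0.0059 to 0.12). The mechanosensitive channel genes went the other way. MCA1 (AT4G35920) averaged 58.1 ± 7.52 CPM in infested and 71.5 ± 2.65 CPM in control plants (log2 fold change -0.30, adjusted p = 0.00091), and MSL10 (AT5G12080), named after its value was seen, fell by 0.36. MSL5 (AT3G14810), one of the 8 largest falls and a channel-like gene of the same family, had 56.3, 55.9, 38.6 and 41.2 CPM in infested plants, against 121, 126, 120.1 and 112 CPM in control plants (log2 fold change -1.32, SE 0.12, adjusted p = 4.7e-12).

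Receptors of microbe- and damage-derived signals rose together: 17 of 24 tested members were higher and 0 lower, with a median log2 fold change of 1.06. EFR (AT5G20480), the receptor of bacterial elongation factor Tu, had 17.03, 16.0, 19.9 and 19.0 CPM in infested plants, against 4.88, 6.93, 5.66 and 5.62 CPM in control plants. SD1-29 (AT1G61380), a lectin receptor kinase that senses bacterial 3-hydroxy fatty acids, had 85.5, 93.4, 92.6 and 90.6 CPM in infested plants, against 24.29, 36.8, 31.7 and 28.6 CPM in control plants. Neither gene's groups overlapped, and the log2 fold changes were 1.63 (SE 0.13, adjusted p = 3.3e-13) and 1.58 (SE 0.11, adjusted p = 1.7e-14). The co-receptor BKK1 (AT2G13790) rose to 163 ± 16.5 CPM in infested plants, against 52.7 ± 7.64 CPM in control plants (log2 fold change 1.63, adjusted p = 2.1e-12). RBOHD (AT5G47910), the oxidase of the apoplastic oxidative burst, had 102, 118, 129 and 111 CPM in infested plants, against 52.2, 58.2, 42.8 and 36.7 CPM in control plants (log2 fold change 1.27, SE 0.15, adjusted p = 1.1e-08). The receptors of the plant's own Pep danger peptides, PEPR1 (AT1G73080) and PEPR2 (AT1G17750), were named after their values were seen and rose by 1.58 and 1.12. The peptide precursor gene PROPEP3 (AT5G64905) had 11 counts over the infested and 2 over the control libraries (ratio 7.99, 95% interval 1.74 to 74.2). Its call (log2 fold change 2.72, adjusted p = 0.034) ended without infested replicate 1 or 3 (adjusted p = 0.061 and 0.23). The PROPEP3 call also ended without control replicate 3 or 4 (0.086 and 0.089) and with counts thinned to the lowest library total (0.15; range 0.012 to 0.23).

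The MAP kinase list had 17 of 20 members higher and 0 lower, with smaller changes (median log2 fold change 0.695). The kinases of 1 known cascade in pattern signalling rose at every level of it. MAPKKK5 (AT5G66850) had 57.1, 63.7, 65.7 and 67.7 CPM in infested plants, against 38.6, 38.2, 39.4 and 40.8 CPM in control plants (log2 fold change 0.70, SE 0.07, adjusted p = 6.4e-11). MKK4 (AT1G51660) and MKK5 (AT3G21220), the next step, rose by 1.04 and 0.69 (adjusted p = 1.8e-09 and 6.5e-08). MPK3 (AT3G45640), at the end of the cascade, had 88.1, 104, 118 and 110.5 CPM in infested plants, against 46.4, 46.3, 53.1 and 53.2 CPM in control plants (log2 fold change 1.08, SE 0.17, adjusted p = 3.4e-06). All 4 genes had every infested library above every control library.

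Early transcription factors gave the highest list medians. Of 23 rapid ERF factors, 19 were higher and 0 lower (median log2 fold change 2.33). ERF104 (AT5G61600), a target of MAP kinase MPK6, had 15.0, 12.19, 19.2 and 12.45 CPM in infested plants, against 2.94, 1.83, 2.29 and 1.71 CPM in control plants (log2 fold change 2.75, SE 0.41, adjusted p = 2.2e-06). ERF11 (AT1G28370), a repressor of the family, rose by 3.496, and AT1G22810, a family member without a symbol here, by 5.11 (2.47 ± 0.506 CPM in infested and 0.0632 ± 0.0580 CPM in control plants). Of 15 zinc finger factors and CAF1 deadenylases, 13 were higher and 1, the zinc finger gene AT2G28200, was lower (-0.79; named after its value was seen), with a median of 2.45. ZAT10 (AT1G27730), a zinc finger repressor of stress responses, had 43.1, 37.8, 47.2 and 47.4 CPM in infested plants, against 6.14, 6.79, 3.83 and 3.14 CPM in control plants (log2 fold change 3.13, SE 0.43, adjusted p = 3.9e-07). ZAT7 (AT3G46090) differed more between infested libraries, at 9.67, 14.0, 19.6 and 22.2 CPM, yet all lay above the 0.472, 0.469, 1.201 and 0.662 CPM of control libraries.

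The same list holds genes of messenger RNA turnover. SZF1 (AT3G55980), a CCCH zinc finger protein, had 132, 127, 167 and 145 CPM in infested plants, against 17.1, 18.6, 21.1 and 23.9 CPM in control plants (log2 fold change 2.83, SE 0.27, adjusted p = 1.4e-10). CAF1A (AT3G44260), a deadenylase that shortens poly(A) tails, had 111, 88.2, 100.4 and 91.2 CPM in infested plants, against 16.9, 18.7, 15.8 and 19.8 CPM in control plants (log2 fold change 2.45, SE 0.32, adjusted p = 1.7e-07). Both groups of these genes were tight, with control values that spanned less than the gap to the infested ones.

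Of 27 WRKY factors, 14 were higher and 0 lower (median log2 fold change 1.09). WRKY33 (AT2G38470), a regulator of camalexin synthesis, had 86.9, 86.7, 117 and 95.4 CPM in infested plants, against 12.0, 12.37, 11.3 and 11.9 CPM in control plants (log2 fold change 3.02, SE 0.28, adjusted p = 1.3e-10). Its control libraries were nearly equal. WRKY46 (AT2G46400) and WRKY48 (AT5G49520) rose by 3.45 and 2.93 (adjusted p = 5.3e-11 and 3.9e-14), and WRKY40 (AT1G80840) by 3.75. Of the MYB, NAC, HSF and CAMTA factors, 14 of 24 were higher and 1 lower (median 0.765). MYB15 (AT3G23250), an activator of lignin genes in immunity, had 28.1, 28.1, 32.4 and 30.18 CPM in infested plants, against 1.10, 2.67, 0.400 and 0.221 CPM in control plants. CAMTA3 (AT2G22300), a calmodulin-binding factor of the rapid stress response, rose by 0.62 (110.2 ± 11.8 CPM in infested and 71.6 ± 6.19 CPM in control plants, adjusted p = 9.2e-06). NAC055 (AT3G15500) rose by 3.04, ATAF2 (AT5G08790) by 1.56 and NAC062 (AT3G49530) by 1.18. The lower member, named after its value was seen, was MYB13 (AT1G06180; 7.21 ± 0.806 CPM in infested and 13.9 ± 5.99 CPM in control plants).

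Ubiquitin ligases of the PUB and ATL families, several of which restrain immune signalling, had 11 of 13 members higher and 0 lower (median log2 fold change 1.47). PUB22 (AT3G52450), a negative regulator of pattern-triggered immunity, had 11.2, 10.5, 13.6 and 11.9 CPM in infested plants, against 1.10, 1.12, 1.43 and 1.32 CPM in control plants (log2 fold change 3.25, SE 0.35, adjusted p = 1.3e-09). ATL2 (AT3G16720) and ATL6 (AT3G05200) rose by 1.79 and 1.51 (adjusted p = 1.1e-07 and 8.5e-10).

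Of 18 genes of phenylpropanoid synthesis, callose and secretion at the plasma membrane, 14 were higher and 1 lower (median log2 fold change 0.924). SYP121 (AT3G11820), the syntaxin of focal secretion, had 105, 101, 146 and 135 CPM in infested plants, against 34.3, 41.5, 49.4 and 49.3 CPM in control plants (log2 fold change 1.48, SE 0.13, adjusted p = 1.8e-12). Its partner SNAP33 (AT5G61210) rose by 0.91 (adjusted p = 7.7e-12). The transporter AT1G59870 (PEN3) exports indole compounds at the same sites and was counted in the list of indole glucosinolates and camalexin. It had 1194, 1216, 1545 and 1456 CPM in infested plants, against 323, 395, 449 and 471 CPM in control plants (log2 fold change 1.72, SE 0.19, adjusted p = 1.7e-09). PAL1 (AT2G37040), the entry enzyme of the phenylpropanoid pathway, had 156, 149, 160.4 and 142 CPM in infested plants, against 85.3, 79.2, 59.2 and 51.0 CPM in control plants (log2 fold change 1.14, SE 0.12, adjusted p = 1.8e-10). The groups of these genes did not overlap. The lower member, named after its value was seen, was the alcohol dehydrogenase gene ELI3-1 (AT4G37980; -0.39).

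**Figure D2:**
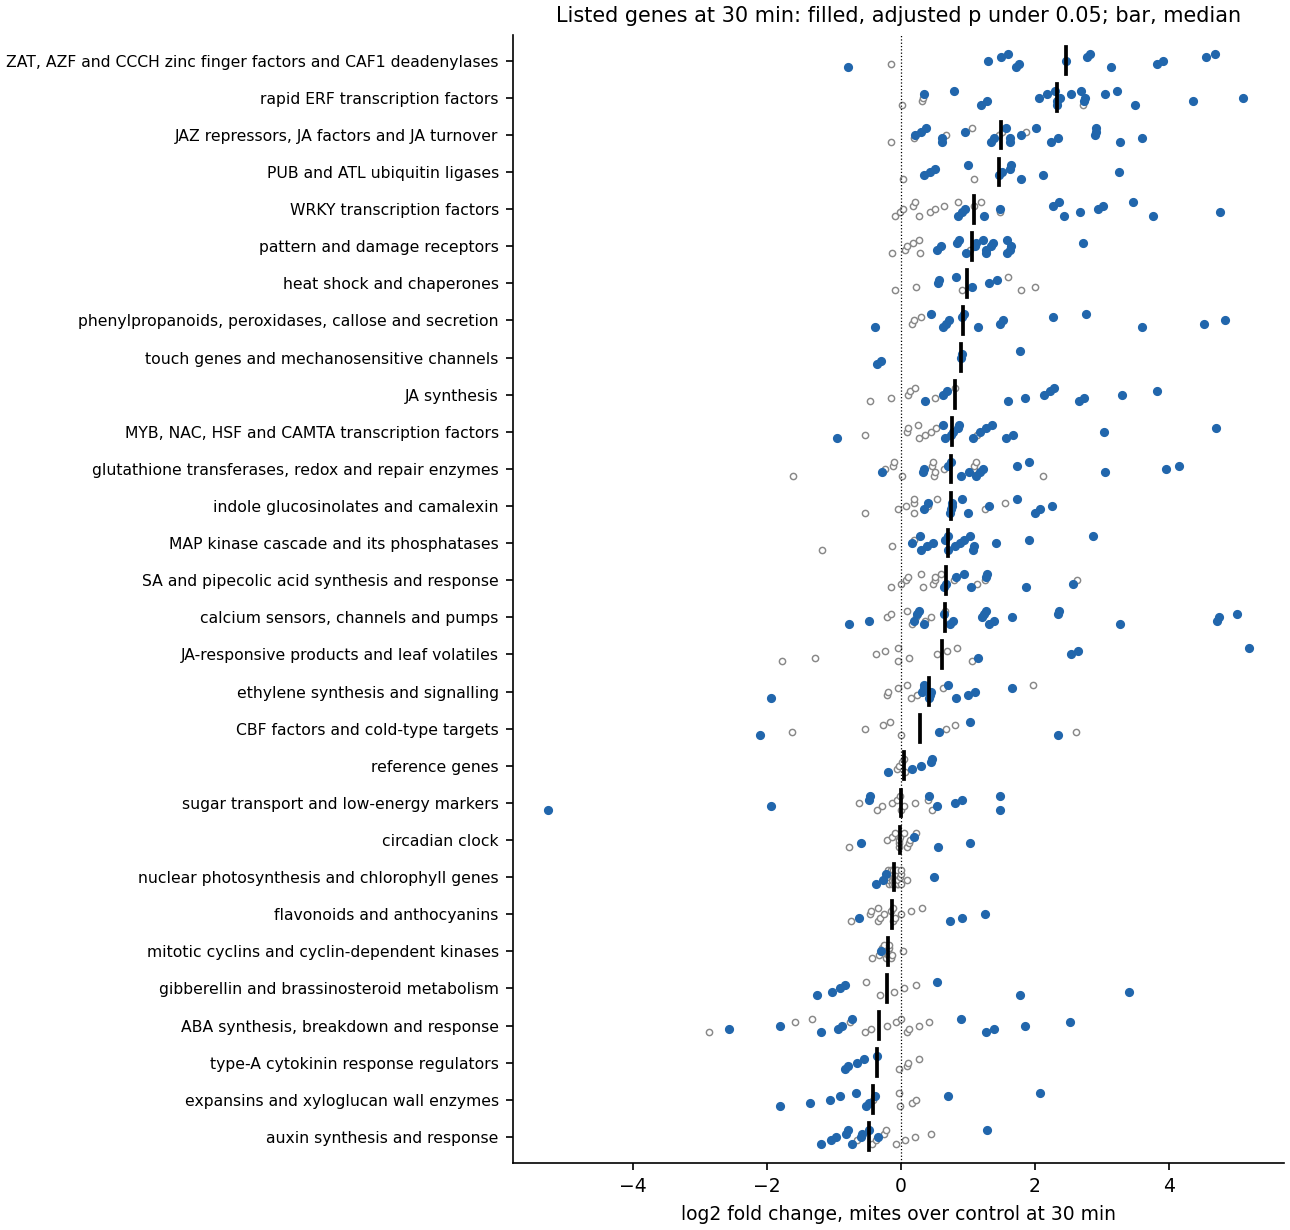
Log2 fold change at 30 min (infested over control, x axis) of the tested members of 30 gene lists (rows), with filled points at an adjusted p under 0.05, open points otherwise and a bar at each list's median. 6 listed genes with no counts in 1 group are not drawn. The medians run from -0.477 for auxin genes to 2.45 for zinc finger factors and CAF1 deadenylases, against -0.01 for all genes tested.

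JA genes rose too, with control libraries that differed among themselves. Of 19 JA synthesis genes, 12 were higher and 0 lower (median log2 fold change 0.812), and of 28 JAZ repressors, JA factors and JA turnover genes 20 were higher and 0 lower (median 1.49). LOX4 (AT1G72520), a lipoxygenase of JA synthesis, had 229, 203, 230.1 and 228 CPM in infested plants, against 19.2, 47.3, 15.8 and 7.83 CPM in control plants (log2 fold change 3.29, SE 0.51, adjusted p = 4.3e-06). OPCL1 (AT1G20510), which activates a JA precursor in the peroxisome, had 476, 422, 416 and 433 CPM in infested plants, against 81.9, 131, 86.3 and 59.2 CPM in control plants (log2 fold change 2.28, SE 0.28, adjusted p = 3.3e-08). AOC3 (AT3G25780), an allene oxide cyclase whose counts may be shared with its near copies AOC1 and AOC2, had 185, 158, 191 and 166 CPM in infested plants, against 10.7, 26.5, 8.00 and 3.69 CPM in control plants (log2 fold change 3.82, SE 0.51, adjusted p = 2.9e-07). For all 3 genes the infested libraries were close together, while the lowest and the highest control library of LOX4 and AOC3 lay several-fold apart. LOX2 (AT3G45140), the abundant leaf lipoxygenase, had 2416, 1835, 1860.5 and 1624 CPM in infested plants and 1756, 1615, 440.3 and 593 CPM in control plants, so that the groups overlapped (log2 fold change 0.81, SE 0.40, adjusted p = 0.15).

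Turnover enzymes of the active hormone JA-isoleucine rose beside the repressors. CYP94C1 (AT2G27690), which oxidises it, had 319, 216, 275 and 270.2 CPM in infested plants, against 16.9, 86.6, 19.8 and 21.4 CPM in control plants (log2 fold change 2.89, SE 0.38, adjusted p = 1.6e-07). IAR3 (AT1G51760), which hydrolyses it, had 367, 245, 261 and 254 CPM in infested plants, against 78.2, 126, 48.2 and 24.8 CPM in control plants (log2 fold change 2.02, SE 0.31, adjusted p = 3.3e-06). The repressors JAZ2 (AT1G74950) and JAZ9 (AT1G70700) rose by 1.79 and 1.63 (adjusted p = 1.3e-05 and 0.00047). Control replicate 2 was the highest control library for each of these genes. JAZ10 (AT5G13220) had 113, 59.0, 70.9 and 71.9 CPM in infested plants, against 29.6, 51.0, 21.8 and 3.91 CPM in control plants (log2 fold change 1.56, adjusted p = 0.033), and its call ended without infested replicate 1 or control replicate 1, 3 or 4 (adjusted p = 0.11, 0.057, 0.084 and 0.12) and when only the libraries of the times compared were fitted (0.14; range 0.0092 to 0.14). The factor MYC2 (AT1G32640) had 384, 318, 268 and 295 CPM in infested plants, against 195, 247, 139.7 and 74.2 CPM in control plants (log2 fold change 0.95, adjusted p = 0.034). That call ended without infested replicate 1, 2 or 4 or control replicate 3 or 4 (adjusted p = 0.099, 0.056, 0.051, 0.093 and 0.15), with no filter on low counts (0.055) and when only the libraries of the times compared were fitted (0.11; range 0.012 to 0.15).

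Over members whose mean log2 CPM was 1 or more, the median SD of log2 CPM in the JAZ and turnover list was 0.219 among infested libraries and 0.924 among control libraries, in the JA synthesis list 0.19 and 0.657, and in the list of JA-responsive products 0.275 and 1.09. For all genes it was 0.118 and 0.123, and for ethylene genes 0.132 and 0.144. As a list level (the median over members of each gene's log2 value minus its mean over the 8 libraries), JAZ and turnover genes stood at 1.26, 0.665, 0.825 and 0.75 in infested libraries, against -0.552, 0.03, -1.01 and -1.81 in control libraries. Control replicate 2 was the highest and control replicate 4 the lowest of its group. The list of JA-responsive products and leaf volatiles was at 0.494, 0.238, 0.187 and 0.297 in infested libraries, against 0.244, -0.09, -1.08 and -0.944 in control libraries, where replicate 1 overlapped the infested range.

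**Figure D3:**
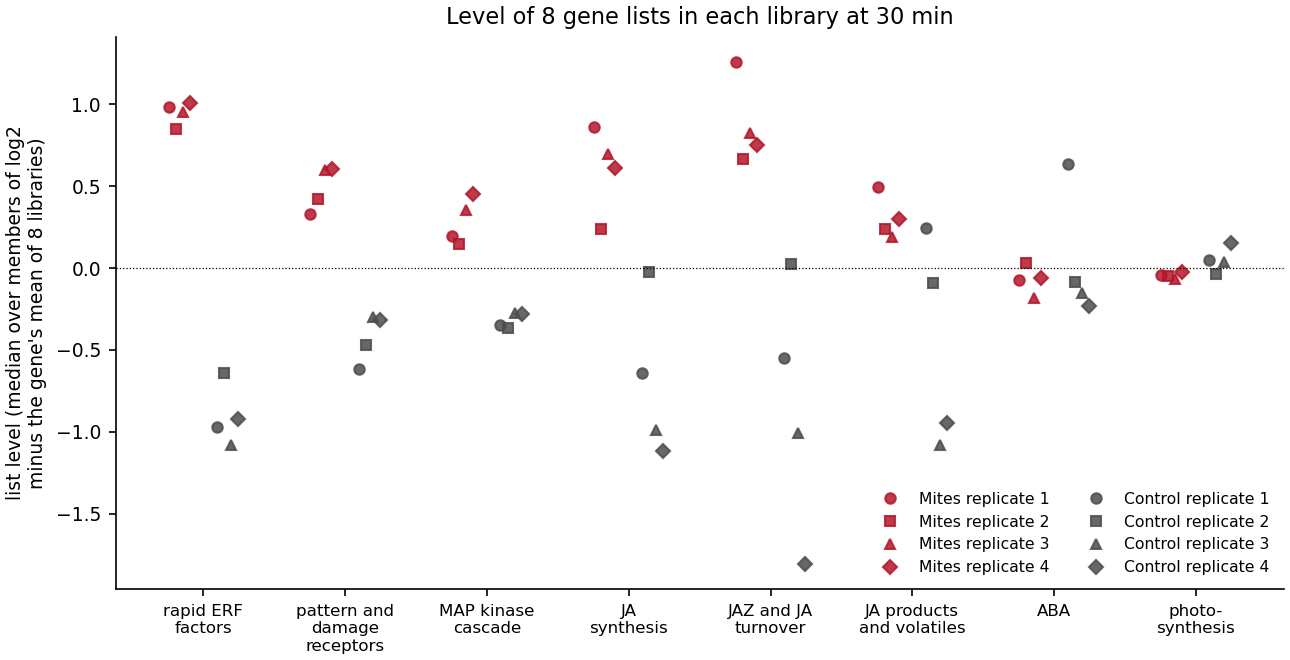
Level of 8 gene lists in each library at 30 min, as the median over members of log2 CPM minus the gene's mean over the 8 libraries, with infested libraries left of control libraries. The JA lists spread widely among control libraries (-1.81 to 0.03 for JAZ repressors, JA factors and JA turnover), and control replicate 1 stands apart for abscisic acid genes at 0.635.

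Of 16 tested products of JA signalling, 4 were higher and 0 lower (median log2 fold change 0.616), and only 1 was called without infested replicate 1, control replicate 3 or control replicate 4, and 2 without infested replicate 3. The count of higher members moved both ways when 1 library was left out, from 1 to 6. VSP2 (AT5G24770), a vegetative storage protein and standard JA marker, had 538, 560.0, 628 and 598 CPM in infested plants and 1650.0, 517, 339 and 503 CPM in control plants (log2 fold change -0.37, SE 0.46, adjusted p = 0.66). Control replicate 1 lay above every infested library, and the rest of the control libraries lay below every infested library. Over the alternatives the VSP2 log2 fold change ran from -0.62 to 0.36, with no call (adjusted p 0.451 to 0.785). The largest rise of the list was that of CYP82G1 (AT3G25180), the last enzyme of homoterpene volatile synthesis, with 21.1, 17.37, 16.4 and 13.8 CPM in infested plants, against 0.262, 1.41, 0 and 0.0551 CPM in control plants (log2 fold change 5.19, SE 0.56, adjusted p = 2.3e-09). TPS04 (AT1G61120), the enzyme of the step before it, had 52.7, 22.1, 32.4 and 25.2 CPM in infested plants, against 5.19, 16.1, 0.515 and 0.331 CPM in control plants (log2 fold change 2.53, adjusted p = 0.037). The TPS04 call ended without infested replicate 1 or 3 or control replicate 1, 3 or 4 (adjusted p = 0.11, 0.059, 0.08, 0.11 and 0.11), under DESeq2 (0.061), with no filter on low counts (0.052) and when only the libraries of the times compared were fitted (0.1; range 0.0069 to 0.11). JMT (AT1G19640), which makes the volatile methyl jasmonate, rose by 1.15 at an adjusted p of 0.011, and the call was lost without infested replicate 1, control replicate 3 or control replicate 4 (adjusted p = 0.053, 0.058 and 0.058) and when only the libraries of the times compared were fitted (0.12; range 0.0006 to 0.12).

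Ethylene genes had 12 of 21 members higher and 1 lower (median log2 fold change 0.422). ACO4 (AT1G05010), an enzyme of the last step of ethylene synthesis, had 606, 577, 614 and 623 CPM in infested plants, against 287, 354, 358 and 370.2 CPM in control plants (log2 fold change 0.82, SE 0.12, adjusted p = 5.0e-07). EBF2 (AT5G25350), an F-box protein that removes the ethylene factor EIN3, rose by 0.71 and the receptor ERS1 (AT2G40940) by 0.45 (adjusted p = 1.2e-07 and 2.7e-06). ACS6 (AT4G11280), an ACC synthase stabilised by MAP kinases, had 18.18, 16.0, 20.4 and 15.9 CPM in infested plants, against 13.01, 13.4, 10.4 and 8.71 CPM in control plants, and did not pass the test (log2 fold change 0.63, adjusted p = 0.14), except when only the libraries of the times compared were fitted (0.0064; range over the alternatives 0.0064 to 0.3). ACS7 (AT4G26200), another ACC synthase, named after its values were seen, had 67 counts over the infested and 0 over the control libraries. It was at least 32.4-fold higher in infested plants, against a floor of 3 counts over the control group (adjusted p = 1.1e-05). The lower member, named after its value was seen, was ACS5 (AT5G65800; -1.93, adjusted p = 0.012), which lost its call when infested replicate 3 was left out (adjusted p = 0.064; range 0.0053 to 0.064).

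In the salicylic acid (SA) list 9 of 23 members were higher and 0 lower (median log2 fold change 0.673). CBP60G (AT5G26920), a calmodulin-binding activator of SA synthesis, had 14.9, 17.2, 26.3 and 21.3 CPM in infested plants, against 2.68, 2.81, 4.35 and 3.64 CPM in control plants (log2 fold change 2.57, SE 0.29, adjusted p = 7.0e-09). The SA receptors NPR1 (AT1G64280) and NPR3 (AT5G45110) rose by 0.64 and 1.05 (adjusted p = 7.1e-07 and 1.0e-06). ICS1 (AT1G74710), the main SA synthesis enzyme, had 11.9, 10.4, 14.9 and 16.9 CPM in infested plants and 11.4, 9.23, 10.9 and 11.6 CPM in control plants (log2 fold change 0.33, adjusted p = 0.37). The late SA marker PR1 (AT2G14610) stayed under 1 CPM in all 8 libraries (log2 fold change 0.07, SE 2.31, adjusted p = 1).

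Indole glucosinolate and camalexin genes, which make tryptophan-derived defence compounds, had 13 of 23 members higher and 0 lower (median log2 fold change 0.743; 1 lower without infested replicate 2, control replicate 2 or control replicate 3). CYP83B1 (AT4G31500), an enzyme of the core pathway, rose to 308 ± 19.0 CPM in infested plants, against 154 ± 27.04 CPM in control plants (log2 fold change 1.00, adjusted p = 2.1e-06). IGMT2 (AT1G21120), which methylates indole glucosinolates, had 3.32, 5.51, 6.15 and 7.38 CPM in infested plants, against 1.10, 1.22, 1.201 and 1.76 CPM in control plants (log2 fold change 2.08, SE 0.31, adjusted p = 7.3e-07). PAD3 (AT3G26830), the last enzyme of camalexin synthesis, did not pass the test, at 1.44, 0.501, 1.34 and 1.16 CPM in infested plants and 0.315, 0.562, 0.400 and 0.221 CPM in control plants (log2 fold change 1.55, SE 0.96, adjusted p = 0.29).

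Flavonoid and anthocyanin genes had 3 of 18 members higher and 1 lower (median log2 fold change -0.13). All 3 higher members were LBD37 (AT5G67420), LBD38 (AT3G49940) and LBD39 (AT4G37540), repressors of anthocyanin synthesis and nitrogen responses. LBD37 had 32.4, 37.7, 48.02 and 42.3 CPM in infested plants, against 23.3, 22.3, 19.7 and 19.6 CPM in control plants (log2 fold change 0.91, SE 0.13, adjusted p = 2.6e-07). LBD38 and LBD39 rose by 1.25 and 0.73 (adjusted p = 1.1e-06 and 2.2e-06). CHS (AT5G13930), the entry enzyme, had 23.3, 28.0, 28.5 and 37.0 CPM in infested plants and 63.0, 28.2, 22.4 and 34.1 CPM in control plants (adjusted p = 0.34). The lower member F3H (AT3G51240; -0.62, adjusted p = 0.012), named after its value was seen, was not called when infested replicate 2 or control replicate 1 was left out (adjusted p = 0.053 and 0.2) or when only the libraries of the times compared were fitted (0.11; range 0.0033 to 0.2).

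Redox and heat shock genes rose in part. Of 29 glutathione transferases, redox and repair enzymes, 14 were higher and 1 lower (median log2 fold change 0.752), with 9 higher without infested replicate 1 or without control replicate 4. GSTF8 (AT2G47730), a stress-inducible glutathione transferase, had 446, 428, 448 and 492 CPM in infested plants, against 214, 197, 198 and 227 CPM in control plants (log2 fold change 1.12, SE 0.11, adjusted p = 4.4e-11). OXI1 (AT3G25250), a kinase activated by hydrogen peroxide, had 1.44, 1.59, 2.37 and 0.724 CPM in infested plants, against 0.105, 0.0937, 0.114 and 0.0551 CPM in control plants (log2 fold change 3.95, SE 0.62, adjusted p = 2.7e-06). APX1 (AT1G07890), the cytosolic ascorbate peroxidase, rose by 0.71 and BAP1 (AT3G61190), which restrains cell death, by 4.15. The lower member was the catalase gene AT4G35090 (-0.28, adjusted p = 0.033; named after its value was seen), lost when infested replicate 3 or 4 or control replicate 1 or 4 was left out (adjusted p = 0.12, 0.099, 0.14 and 0.054; range 0.0095 to 0.14). Among 14 heat shock genes, 6 were higher and 0 lower (median 0.984). HSP90.1 (AT5G52640) had 70.2, 83.4, 64.5 and 74.3 CPM in infested plants, against 42.4, 30.8, 23.1 and 20.7 CPM in control plants (log2 fold change 1.32, SE 0.28, adjusted p = 0.00036). The factor HSFA2 (AT2G26150) and the co-chaperone ROF1 (AT3G25230) rose by 1.43 and 0.55.

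Abscisic acid (ABA) genes, which govern responses to water loss, split in direction, and part of the falls rested on control replicate 1. Of 24 tested, 5 were higher and 6 lower (median log2 fold change -0.32), and 3 were lower without control replicate 1. CYP707A3 (AT5G45340), an ABA-degrading enzyme, had 22.5, 23.0, 35.7 and 31.4 CPM in infested plants, against 4.98, 4.17, 4.403 and 6.01 CPM in control plants (log2 fold change 2.53, SE 0.31, adjusted p = 5.0e-08). CYP707A2 (AT2G29090), an enzyme of the same reaction, had 3.75, 6.35, 4.89 and 3.76 CPM in infested plants, against 20.9, 16.5, 15.38 and 12.24 CPM in control plants (log2 fold change -1.80, SE 0.23, adjusted p = 8.7e-08). These 2 paralogs thus moved in opposite directions, each with no overlap of the groups. The signalling kinase OST1 (AT4G33950) fell by 0.88 (14.5 ± 2.25 CPM in infested and 26.7 ± 2.26 CPM in control plants, adjusted p = 7.6e-07). The receptor genes PYL4 (AT2G38310), PYL5 (AT5G05440) and PYL6 (AT2G40330), named after their values were seen, rose by 0.90, 1.26 and 1.85 (adjusted p = 0.00058, 9.8e-07 and 2.6e-06).

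Control replicate 1 was high for drought-type genes, and the falls of the 5 genes that follow did not pass the test without it, nor when only the libraries of the times compared were fitted. HAI2 (AT1G07430), an ABA-induced phosphatase named after its value was seen, had 1.08, 1.34, 1.10 and 1.52 CPM in infested plants and 26.3, 1.78, 0.686 and 1.16 CPM in control plants. Its log2 fold change of -2.57 (adjusted p = 0.029) was 0.03 (adjusted p = 1) without control replicate 1, and leaving out infested replicate 1, 2, 3 or 4 also ended the call (adjusted p = 0.072, 0.058, 0.071 and 0.058; range 0.0019 to 1, with 0.25 for only the libraries of the times compared). The homeodomain factor AT2G46680 (HB-7), an ABA- and drought-responsive gene, had 4.62, 5.34, 5.44 and 4.49 CPM in infested plants and 67.0, 5.25, 4.69 and 4.63 CPM in control plants. Its log2 fold change of -2.04 (adjusted p = 0.024) was 0.03 (adjusted p = 1) without control replicate 1, and its call also ended without infested replicate 1 or 4 (adjusted p = 0.058 and 0.059; range 0.0019 to 1, with 0.26 for only those libraries). The galactinol synthase gene GolS2 (AT1G56600) had 2.597, 3.09, 3.31 and 2.03 CPM in infested plants and 27.1, 3.94, 3.95 and 4.63 CPM in control plants, and its adjusted p of 0.0077 was 0.4 without control replicate 1 (log2 fold changes -1.85 and -0.60; range 0.00011 to 0.4) and 0.17 in the smaller fit. The phosphatases PP2CA (AT3G11410) and ABI2 (AT5G57050), named after their values were seen, had fold changes of -0.94 and -1.19 with it and -0.36 and -0.73 without it on the log2 scale (adjusted p = 0.25 and 0.06 without it, and 0.19 and 0.052 in the smaller fit; ranges 0.0016 to 0.25 and 0.00023 to 0.06). NCED3 (AT3G14440), the drought-induced enzyme of ABA synthesis, was a riser, with 11.4, 10.7, 8.91 and 9.91 CPM in infested plants and 10.3, 2.39, 1.49 and 1.38 CPM in control plants, where replicate 1 overlapped the infested range (log2 fold change 1.38, adjusted p = 0.0068; range 7.4e-07 to 0.18). Without control replicate 1 its log2 fold change was 2.52 (adjusted p = 7.4e-07), and its call ended when only the libraries of the times compared were fitted (0.18).

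Cold-type genes gave no stable count: 3 of 12 were higher and 1 lower (median log2 fold change 0.281), with 1 higher without infested replicate 1 or 3 or control replicate 3 or 4 and 5 higher without control replicate 2. COR47 (AT1G20440), a dehydrin, kept its call under every alternative and had 332, 291, 390.4 and 368 CPM in infested plants, against 209, 284, 219 and 220.2 CPM in control plants (log2 fold change 0.57, SE 0.13, adjusted p = 0.0006). RD29A (AT5G52310), also higher, had 122, 106, 119 and 118.6 CPM in infested plants, against 94.2, 78.0, 30.7 and 24.9 CPM in control plants. Its call (log2 fold change 1.03, adjusted p = 0.048) ended under 10 of 15 alternatives (range 0.014 to 0.18). That of the remaining riser DDF1 (AT1G12610; 2.35, adjusted p = 0.033) ended under 8 of 14 (range 0.0021 to 0.14). CBF3 (AT4G25480), the lower member, had 0.361, 0.501, 0 and 0.217 CPM in infested plants and 3.20, 0.562, 0.686 and 0.221 CPM in control plants, and its call ended when infested replicate 3 or 4 or control replicate 1 was left out (adjusted p = 0.087, 0.059 and 0.45; range 0.0041 to 0.45). CBF1 (AT4G25490) had 6 counts over the infested and 1 over the control libraries (ratio 8.72, 95% interval 1.06 to 401). That interval covers counting error only, and CBF1 did not pass the test (log2 fold change 2.61, SE 2.04, adjusted p = 0.42). Infested replicates 1 and 2 had no CBF1 counts. The paralog CBF2 (AT4G25470) was lower without overlap of the groups, but did not pass either (log2 fold change -1.62, adjusted p = 0.14). CBF2 passed only when the libraries of the times compared were fitted alone (0.0069; range over the alternatives 0.0069 to 0.31).

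Growth hormones showed more falls than rises. Of 21 auxin genes, 1 was higher and 10 were lower (median log2 fold change -0.477; 6 lower without infested replicate 4), and 5 of the lower ones lie in the SAUR19 to SAUR24 cluster of near copies, whose reads may be shared. IAA3 (AT1G04240), a repressor of auxin signalling, had 54.0, 52.4, 45.0 and 43.6 CPM in infested plants, against 89.9, 108, 103 and 101 CPM in control plants (log2 fold change -1.04, SE 0.11, adjusted p = 7.8e-10). The auxin carrier PIN3 (AT1G70940) had 114, 114, 123 and 109 CPM in infested plants, against 143, 167, 161 and 169 CPM in control plants (log2 fold change -0.48, SE 0.07, adjusted p = 7.3e-07). GH3.3 (AT2G23170), which conjugates auxin to amino acids, was the riser, with 179.5, 149, 183 and 181 CPM in infested plants, against 57.7, 86.8, 68.6 and 70.7 CPM in control plants (log2 fold change 1.29, SE 0.15, adjusted p = 4.4e-09). Of 9 type-A response regulators, which damp cytokinin signalling, 5 were lower and 0 higher (median -0.36). ARR9 (AT3G57040) had 13.3, 11.6, 12.5 and 13.4 CPM in infested plants, against 22.8, 19.4, 21.8 and 23.8 CPM in control plants (log2 fold change -0.79, SE 0.10, adjusted p = 6.8e-08). ARR8 (AT2G41310) and ARR16 (AT2G40670) fell by 0.54 and 0.66, and ARR4 (AT1G10470) and ARR15 (AT1G74890), named after their values were seen, by 0.36 and 0.84. ARR5 (AT3G48100) was at 4.90 ± 0.656 CPM in infested and 4.99 ± 0.991 CPM in control plants (adjusted p = 0.97).

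Gibberellin and brassinosteroid metabolism had 3 of 12 genes higher and 4 lower (median log2 fold change -0.20). GA2OX6 (AT1G02400), which inactivates gibberellin, had 27.9, 21.0, 35.6 and 30.25 CPM in infested plants, against 2.57, 3.42, 3.09 and 1.71 CPM in control plants (log2 fold change 3.404, SE 0.30, adjusted p = 6.5e-12). GA20OX1 (AT4G25420), which makes gibberellin precursors, had 1.51, 1.59, 1.34 and 0.868 CPM in infested plants, against 3.36, 4.73, 2.23 and 2.15 CPM in control plants (log2 fold change -1.25, SE 0.26, adjusted p = 0.00022). The inactivating and the synthetic enzyme thus moved in opposite directions. DWF4 (AT3G50660), a rate-limiting enzyme of brassinosteroid synthesis, had 16.7, 13.6, 10.6 and 12.9 CPM in infested plants, against 21.1, 24.8, 27.4 and 27.8 CPM in control plants (log2 fold change -0.91, SE 0.13, adjusted p = 8.6e-07). The other called members, named after their values were seen, were the gibberellin-inactivating GA2OX8 (AT4G21200; 1.78), the transcription factor BEE1 (AT1G18400; 0.54), the synthesis gene BR6OX2 (AT3G30180; -1.02) and the brassinosteroid-inactivating BAS1 (AT2G26710; -0.83). The BEE1 call was lost when infested replicate 4 or control replicate 1 was left out (adjusted p = 0.053 and 0.073; range 0.0022 to 0.073).

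Of 15 cell wall loosening genes, 8 were lower and 2 higher (median log2 fold change -0.42). XTH15 (AT4G14130), a xyloglucan-modifying enzyme, had 3.46, 6.18, 3.07 and 4.85 CPM in infested plants, against 9.18, 10.3, 20.6 and 21.4 CPM in control plants (log2 fold change -1.81, SE 0.23, adjusted p = 5.4e-08). XTH9 (AT4G03210) and XTH33 (AT1G10550) fell by 0.91 and 1.36 (adjusted p = 6.9e-06 and 0.0014). Both risers belong to the same families: XTH18 (AT4G30280) had 158, 133, 191 and 187 CPM in infested plants, against 23.1, 37.0, 40.7 and 58.5 CPM in control plants (log2 fold change 2.07, SE 0.23, adjusted p = 3.4e-09), and the expansin EXPA1 (AT1G69530) rose by 0.70. Cell division genes had 0 of 13 members higher and 1 lower, CYCD3;1 (AT4G34160; -0.30, adjusted p = 0.023), whose call ended without infested replicate 1 or control replicate 1 or 3 (adjusted p = 0.07, 0.051 and 0.057; range 0.0025 to 0.07).

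Of 33 nuclear photosynthesis and chlorophyll genes, 1 was higher and 3 were lower (median log2 fold change -0.11), with 8 lower when library totals were the only scaling. GLK1 (AT2G20570), an activator of these genes, had 379.6, 404, 329 and 326 CPM in infested plants, against 276, 259, 249 and 236 CPM in control plants (log2 fold change 0.49, SE 0.08, adjusted p = 8.6e-06). AT1G44446 (CH1), which makes chlorophyll b, and PORC (AT1G03630), a protochlorophyllide reductase, fell by 0.37 and 0.27 (adjusted p = 0.00011 and 0.0029). The third lower member, PRK (AT1G32060; -0.23, adjusted p = 0.036), was named after its value was seen, and its call ended without infested replicate 1, 2 or 3 or control replicate 1, 3 or 4 (adjusted p = 0.064, 0.077, 0.085, 0.092, 0.055 and 0.13; range 0.0042 to 0.13). RCA (AT2G39730), Rubisco activase, had 8378, 7996, 8022 and 8122 CPM in infested plants, against 9253, 8493, 8494 and 9505 CPM in control plants (log2 fold change -0.14, adjusted p = 0.18). It passed as lower with library totals as the only scaling (adjusted p = 0.025) and when only the libraries of the times compared were fitted (0.032; range over the alternatives 0.025 to 0.4).

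Clock genes, whose RNA changes through the day, moved little as a list. Of 17 tested, 3 were higher and 1 lower (median log2 fold change -0.02). CCA1 (AT2G46830) and its partner LHY (AT1G01060), expressed at dawn, averaged 122 ± 15.0 and 18.6 ± 2.38 CPM in infested plants and 125 ± 14.9 and 16.9 ± 2.00 CPM in control plants (adjusted p = 0.85 and 0.27). PRR9 (AT2G46790), a morning repressor, had 80.01, 86.5, 58.3 and 57.4 CPM in infested plants, against 129.6, 104, 105 and 88.9 CPM in control plants (log2 fold change -0.60, SE 0.12, adjusted p = 0.00013). The evening genes LUX (AT3G46640) and TOC1 (AT5G61380) had 18.5 ± 1.72 and 33.1 ± 4.37 CPM in infested plants, against 9.09 ± 2.096 and 22.6 ± 2.16 CPM in control plants (log2 fold changes 1.03 and 0.55, adjusted p = 1.1e-06 and 0.00032). The third riser, RVE8 (AT3G09600; 0.19, adjusted p = 0.041; named after its value was seen), lost its call without infested replicate 1 or 2 or control replicate 1 or 4 (adjusted p = 0.22, 0.072, 0.057 and 0.23). It was also lost with library totals as the only scaling (0.17), under DESeq2 (0.052), with no filter on low counts (0.13) and when only the libraries of the times compared were fitted (0.12; range of adjusted p 0.025 to 0.23). The order and hour of harvest of the libraries do not appear in the sources used here, and their part in other results was not tested.

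Sugar genes split, with 6 of 21 higher and 4 lower (median log2 fold change -0.0015). CWINV1 (AT3G13790), a cell wall invertase, had 57.2, 51.8, 64.3 and 64.5 CPM in infested plants, against 16.7, 17.9, 22.4 and 28.5 CPM in control plants (log2 fold change 1.48, SE 0.23, adjusted p = 2.5e-06). The sugar importer STP4 (AT3G19930) rose by 0.80 (adjusted p = 5.4e-09), while the sucrose exporter SWEET13 (AT5G50800) had 0.794, 2.25, 1.73 and 0.506 CPM in infested plants, against 5.87, 5.72, 5.03 and 3.20 CPM in control plants (log2 fold change -1.94, SE 0.30). DIN6 (AT3G47340), a low-energy marker, stood at 331 ± 28.0 CPM in infested and 332 ± 45.7 CPM in control plants. Of 10 reference genes used in other assays, 4 were higher and 1 lower (median 0.05; 2 higher with library totals as the only scaling). UBQ10 (AT4G05320) averaged 1223 ± 46.9 CPM in infested and 893 ± 35.7 CPM in control plants (log2 fold change 0.45, adjusted p = 4.8e-06), UBC9 (AT4G27960) was higher by 0.47 and GAPC2 (AT1G13440) at -0.19, while ACT2 (AT3G18780) did not pass the test (506 ± 18.6 and 526 ± 42.7 CPM, adjusted p = 0.66).

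The 24 h comparison has its own control libraries, so the size of each effect could be tested against that at 30 min. At 24 h infested plants had 2882 higher (13%) and 2275 lower genes (10.2%). The effect differed between the times for 2447 genes (11%), being higher at 24 h for 1192 (5.36%) and lower for 1255 (5.64%). Receptors had a lower effect at 24 h for 10 of 24 members and a higher one for 2, calcium genes for 9 and 3 of 29, secretion and phenylpropanoid genes for 7 and 1 of 18, and ethylene genes for 7 and 0 of 21. The reverse held for JA-responsive products, with a higher effect at 24 h for 7 of 16 and a lower one for 0, for JA synthesis genes (5 and 0 of 19), and for indole glucosinolate and camalexin genes (11 and 3 of 23). WRKY factors were mixed, with 3 of 27 higher and 4 lower in effect. The lists were chosen with the 30 min results known, and the 30 min values enter these differences.

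Among genes called at 30 min, single genes gave the extremes of this change. PUB22 had 2.16 ± 0.981 CPM in infested and 1.61 ± 0.416 CPM in control plants at 24 h, and its effect was lower there than at 30 min by a log2 difference of -2.82 (SE 0.51, adjusted p = 0.00014). ARGOS (AT3G59900), a promoter of organ growth, had 28.4, 26.97, 30.12 and 28.4 CPM in infested plants at 30 min, against 9.60, 11.8, 10.9 and 14.4 CPM in control plants, but 0.914 ± 0.107 CPM in infested and 3.23 ± 0.976 CPM in control plants at 24 h (difference -3.09, SE 0.26, adjusted p = 4.2e-11). Its call thus turned from higher to lower. AT1G19320, a thaumatin family gene, had 12.5, 14.2, 14.5 and 10.6 CPM in infested plants at 30 min, against 0.682, 1.17, 1.03 and 1.87 CPM in control plants, and 1.18 ± 0.507 and 1.26 ± 0.370 CPM in infested and control plants at 24 h (difference -3.52, adjusted p = 0.003). The heat shock factor HSFA7A (AT3G51910) was higher at 30 min (log2 fold change 1.06) and lower at 24 h (-1.69; difference -2.75, adjusted p = 0.0002). The methionine sulfoxide reductase gene MSRB9 (AT4G21850) had 69.7 ± 17.7 CPM in infested plants at 24 h, against 4.59 ± 3.21 CPM in control plants (difference 2.73, adjusted p = 0.00016). Its call at 30 min (log2 fold change 1.19, adjusted p = 0.0074) ended when only the libraries of the times compared were fitted (0.083; range 0.00033 to 0.083). MDHAR (AT3G09940), which regenerates ascorbate, had 15.7, 4.68, 14.3 and 7.82 CPM in infested plants at 30 min and 3.67, 6.37, 1.54 and 0.937 CPM in control plants, and its effect was higher at 24 h by 4.38 (adjusted p = 0.00032). Its call at 30 min (log2 fold change 1.73, adjusted p = 0.021) ended without infested replicate 1 or 3 or control replicate 3 or 4 (adjusted p = 0.087, 0.068, 0.072 and 0.082), under DESeq2 (0.07) and when only the libraries of the times compared were fitted (0.097; range 0.0058 to 0.097).

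Of the 934 genes at least 2-fold higher at 30 min, 69.9% were called higher again at 24 h (background 13%), 25.5% at 4 d (8.68%), 7.82% at 7 d (6.16%), 2.89% at 12 d (7.78%) and 1.82% at 15 d (8.67%). Calls in the opposite direction made up 0.857% at 24 h (background 10.2%), 22.7% at 4 d (7.68%), 37.5% at 7 d (7.59%), 32.9% at 12 d (8.3%) and 228 genes at 15 d (background 9.68%). From 4 d on, the share called lower exceeded the background at each harvest. Of the 189 genes at least 2-fold lower at 30 min, 23.3% were called lower again at 24 h (background 10.2%). The 493 genes higher at least 2-fold at both 30 min and 24 h made up 52.8% of those of 30 min and 37.7% of the 1309 (5.88% of all genes) of 24 h.

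**Figure D4:**
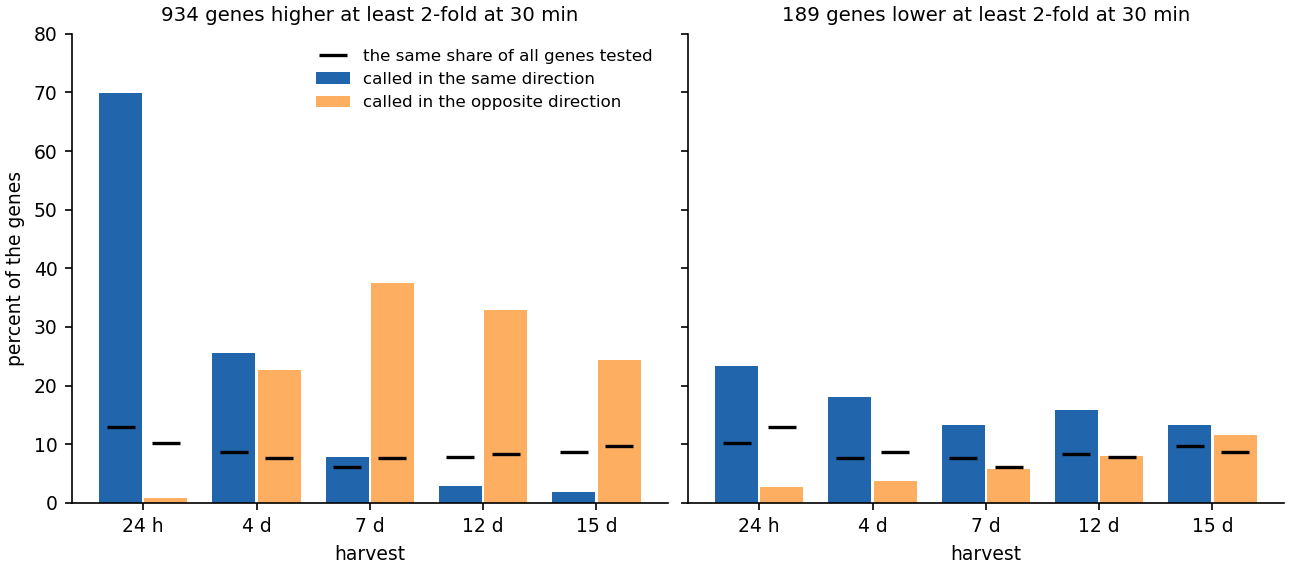
Share of the genes at least 2-fold higher, and of those at least 2-fold lower, at 30 min that were called in the same or the opposite direction at each later harvest, beside the share of all genes tested. For the risers, the same-direction share is 69.9% at 24 h and 1.82% at 15 d, and the opposite share is highest at 7 d with 37.5%.

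Genes changed at least 2-fold differed from all genes tested in gene structure and also in expression level. Of the 905 protein-coding risers of at least 2-fold with a gene model, 294 (32.5%) had a single exon, as did 60 of 177 (33.9%) such fallers, against 3383 of all 21038 tested genes (16.1%). The median transcript length was 1637 bases for risers, 1429 for fallers and 1708 for all. Their median mean log2 CPM was 2.93, 1.27 and 3.77, and the part of expression level in the contrasts of this paragraph was not tested. In the 250 bases before the gene start, searched on both strands, the W-box core TTGACC or TTGACT occurred in 44.4% of riser promoters, 30.5% of faller promoters and 28.4% of all 21037. The rapid stress response element CGCGTT occurred in 7.29, 1.13 and 2.75%, and the related CAMTA letters CCGCGT in 5.86, 0 and 1.87%. These motifs overlap in the letters CCGCGTT, which 12 riser promoters and 118 of all hold. The site II letters TGGGCC or TGGGCT went the other way, at 11.6% of risers, 9.6% of fallers and 21.6% of all. The G-box CACGTG (9.06, 8.47 and 7.35%), the GCC box GCCGCC (2.54, 1.13 and 1.88%) and the DRE core CCGAC (12.7, 10.7 and 12.7%) differed less. In the 150 bases nearest the start the W-box shares were 34.1, 21.5 and 19.4%. Of the windows shown above, that of ZAT7 holds its W-box core as TTGACT on the gene's strand and that of ACA12 on the other strand.

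**Figure D5:**
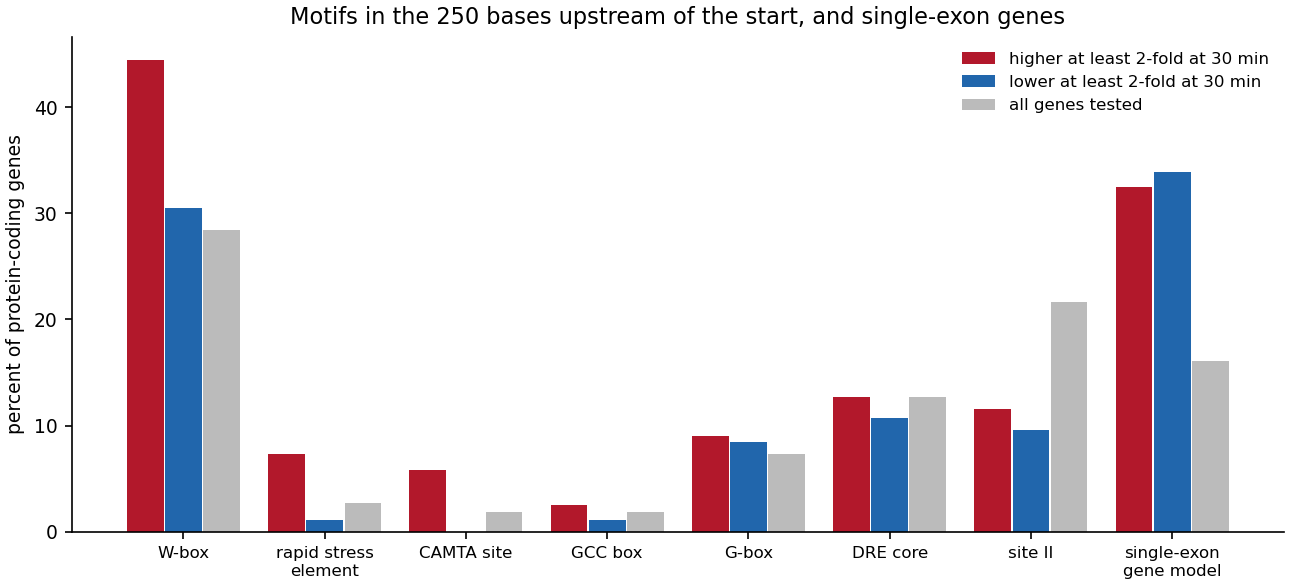
Share of promoters with each motif in the 250 bases before the gene start, and share of genes with a single exon, for genes at least 2-fold higher at 30 min, at least 2-fold lower, and all genes tested. The W-box bars stand at 44.4, 30.5 and 28.4%, and the single-exon bars at 32.5, 33.9 and 16.1%.

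Whole families named by RefSeq product text, grouped after results were seen, show how far the early change reached. Cysteine-rich receptor-like kinases had 15 of 32 members higher and 1 lower, TIR-NBS-LRR disease resistance genes 37 of 83 higher and 3 lower, EF-hand and calmodulin-like genes 24 of 58 higher and 1 lower, and VQ motif genes, whose products bind WRKY factors, 9 of 23 higher and 1 lower. Against the 13.3% of all genes, these shares were 46.9, 44.6, 41.4 and 39.1%. Leucine-rich repeat receptor genes went both ways, with 35 of 183 higher and 45 lower, but 18 higher and 0 lower by at least 2-fold. Lower members prevailed among genes with a histone product name (17 of 94 lower, 1 higher) and SAUR genes (16 of 65 lower, 7 higher). The histone names were matched by text and can include enzymes that modify histones. Genes with ribosomal protein and no organelle term in the product name had 5 of 303 higher and 1 lower. Peroxidases had 3 of 44 higher and 2 lower, and both families were under the background.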

How the data were processed

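RNA-seq of pooled aerial tissue was analysed from the authors' deposited table of raw counts, whole-number read counts per gene for all 48 libraries. Per the submitters' processing notes, fastp, HISAT2, featureCounts and DESeq2 were used with TAIR10; versions, annotation release and the strand setting do not appear in the sources used here. Reads of overlapping or antisense genes therefore cannot be told apart, and near-identical copies may share or lose reads. From these counts, edgeR 4.0.16 (with limma 3.58.1, R 4.3.3) was run after its expression filter, with TMM scaling, 1 coefficient for each of 12 groups over 48 libraries, the quasi-likelihood test and Benjamini-Hochberg adjustment at 0.05. CPM values are scaled by TMM-adjusted library size. SE values are approximate: the absolute log2 fold change divided by the square root of the test's F statistic. Total counts per library are given with the results; the depth of the infested libraries limits the precision for genes of low count.

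Replicates are separate pools of 4 plants, and p-values measure only the spread between pools of a group. That spread was estimated jointly over all 12 groups, and so not from the 30 min libraries alone. Of 33211 features, 32548 matched RefSeq (TAIR10.1) by locus, 378 carry no locus name and 285 organelle features were not matched. The comparison, and the 36 lists (30 of function and 6 of markers, 633 loci, 601 tested), were chosen with earlier results of these data known. Genes were named by rule: the 12 largest rises and 8 largest falls with no overlap of groups and a mean log2 CPM of at least 1, key genes and the 3 smallest adjusted p of each list, the 5 most positive and 5 most negative differences of effect at 24 h among genes called at 30 min with such a mean, and the 5 largest called rises and falls in CPM. This gave 153 genes; 28 more were named after their values were seen. DESeq2 1.42.0, other scalings, no filter, fewer libraries in the fit, thinned counts, a replicate block and leaving out each library were the alternatives. Scripts were tested on simulated data.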

Additional observations from a re-analysis of the deposited data

Results flagged for a closer look

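Of 368 groups of 4 values examined, 37 held 1 value set apart from the other 3 by more than Dixon's 95% limit, which chance gives in about 1 of 20 groups. Control replicate 1 stood high among control libraries for ABA- and drought-type genes, with 26.3 CPM for HAI2, 116 CPM for PP2CA, 30.5 CPM for ABI2, 67.0 CPM for AT2G46680, 27.1 CPM for GolS2 and 10.3 CPM for NCED3. In the same library VSP2 stood at 1650.0 CPM, CBF3 at 3.20 CPM, PYD4 at 12.7 CPM, AT2G25625 at 11.2 CPM, LHY at 19.9 CPM, MYR2 at 23.1 CPM and ELI3-1 at 136 CPM. It was the low one for PP2-A5 (7.66 CPM), the feature without a locus name (840 CPM) and SNAP33 (52.7 CPM).

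CBF1 had its only control counts in control replicate 1 (0.0525 CPM). Control replicate 2 stood high for CYP94C1 (86.6 CPM), COR47 (284 CPM) and DDF1 (0.843 CPM), control replicate 3 for MKK4 (25.7 CPM) and control replicate 4 for OST1 (30.0 CPM). Infested replicate 1 stood high for GLR3.3 (69.9 CPM), IAR3 (367 CPM), JAZ9 (1131 CPM) and SESA1 (4.69 CPM) and low for BAS1 (1.88 CPM). Infested replicate 2 was the low one for LOX4 (203 CPM), GH3.3 (149 CPM), ARR5 (3.92 CPM), F3H (8.27 CPM) and PYL5 (101 CPM), and stood high in its chloroplast share (0.0816%) and its mitochondrial share (0.0159%). Infested replicate 4 stood high for MKK5 (44.9 CPM) and SPL13A (29.5 CPM), and held the single infested count of AP3 (0.0724 CPM). The call of SPL13A at 30 min ended without that library (log2 fold change 1.43, adjusted p = 0.3) and when only the libraries of the times compared were fitted (0.088).

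The effect of infestation differed between 24 h and 30 min, by a test of the difference itself in edgeR, for 72 of the 181 named genes, 45 of them with a lower and 27 with a higher effect at 24 h. The genes given here are the extremes among those called at 30 min whose mean log2 CPM was 1 or more, so the 30 min value enters both their choice and the difference. PYD4 and AT2G25625 were lower at 30 min (log2 fold changes -1.67 and -1.56, adjusted p = 0.049 and 0.014). Without control replicate 1 their log2 fold changes were -0.48 and -0.59 (adjusted p = 0.69 and 0.39). The PYD4 call ended under 8 of 15 alternatives (range 0.0034 to 0.69) and that of AT2G25625 under 3 (range 0.00099 to 0.39). On the log2 scale the effect was higher at 24 h by 4.38 for MDHAR (adjusted p = 0.00032), 2.87 for PYD4 (0.0081), 2.78 for AT2G46680 (0.035), 2.73 for MSRB9 (0.00016) and 2.35 for AT2G25625 (0.0097). Without control replicate 1 of 30 min the adjusted p was 0.14 for PYD4, 0.65 for AT2G46680 and 0.098 for AT2G25625, and when only the libraries of the times compared were fitted it was 0.05, 0.12 and 0.052. For AT2G46680 it was also 0.053 to 0.066 without any 1 of the infested libraries of 30 min, 0.054 to 0.066 without infested replicate 1 or 2 or control replicate 1 or 4 of 24 h, and 0.057 with the replicate block. The effect at 24 h minus that at 30 min was -2.82 for PUB22 (adjusted p = 0.00014), -3.52 for AT1G19320 (0.003), -3.09 for ARGOS (4.2e-11), -2.75 for HSFA7A (0.0002) and -4.92 for SPL13A (0.013). For SPL13A the adjusted p was 0.14 without infested replicate 4 of 30 min, 0.072 without control replicate 4 of 24 h, and 0.059 when only the libraries of the times compared were fitted.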

How the results depend on the processing

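The counts over all genes at 30 min stayed within 1.5 times the main ones under the 15 alternatives. Leaving out 1 library at a time gave 2577 to 2797 higher and 1695 to 2075 lower genes, of which 858 to 969 and 157 to 225 by at least 2-fold. For the effect at 24 h against 30 min it gave 954 to 1209 genes higher and 1002 to 1237 lower. DESeq2 called 2996 higher and 2206 lower, and library totals as the only scaling 2506 and 2735. Without control replicate 1, the log2 fold changes of AT2G46680 and HAI2 reversed to 0.02686 and 0.03187 (adjusted p = 1 each), while leaving out other single libraries gave values down to -2.368 for AT2G46680 and -2.941 for HAI2; the cause was not tested. Of 181 named genes, 33 had a changed call at 30 min under at least 1 alternative. Replicate numbers did not pair the libraries: the correlations of same-numbered deviations were -0.01, -0.03, -0.02 and 0.08. With the replicate number as a block, 3111 genes were higher and 2327 lower. Without the filter on low counts 2536 were higher and 2291 lower. Depth limits genes of few counts, such as CBF1 and PROPEP3.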
